A study of Mus musculus with 60 samples.

Results

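The 32 genes described here are expressed when mouse cells copy their DNA and divide. They are a list of S, G2 and M phase genes, looked up by symbol among the 52636 Ensembl genes of the deposited count table, and all 32 were found, each with 1 identifier. By role they fall into 9 genes of DNA copying and its building blocks (Mcm2, Mcm3, Mcm5, Mcm6, Pcna, Rrm1, Rrm2, Tyms and Tk1), 8 cyclins, kinases and their transcription factor (Ccna2, Ccnb1, Ccnb2, Cdk1, Plk1, Aurka, Aurkb and Foxm1), 4 genes of the spindle checkpoint and its target (Bub1, Bub1b, Ttk and Cdc20), and 11 chromosome and spindle proteins (Mki67, Top2a, Birc5, Nusap1, Kif11, Kif20a, Kif23, Cenpe, Cenpf, Tpx2 and Prc1).

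Resting cells hold little RNA of such genes. When a cell enters the cycle, E2F factors switch on the DNA copying genes, and later, as repression by the DREAM complex is lifted, B-MYB and FOXM1 drive the genes of chromosome segregation, whose promoters often hold a CHR element (TTTGAA or TTCGAA) near CCAAT boxes. In adult mice the spleen still makes blood cells, hair follicles grow in cycles, and kidney, liver and skeletal muscle renew slowly.

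Because the members are described below as moving together, the promoters of 4 of them are shown as RefSeq (GRCm38.p6) gives them, from 250 bases before to 50 after the start of the gene and 5′ to 3′ on the gene's own strand. Capitals mark CHR elements (TTTGAA, or TTCAAA on the other strand), CCAAT boxes (CCAAT or ATTGG) and E2F letters (TTTCCCGC, TTTCGCGC, TTTGCCGC or TTTGGCGC on either strand). Mcm5, a subunit of the replicative helicase, lies at chr8:75109259-75109558 on the plus strand and stands for the DNA copying genes. The Mcm5 capitals join overlapping E2F matches on opposite strands. Cdk1, the kinase that starts mitosis, is at chr10:69352863-69353162, its partner cyclin Ccnb2 at chr9:70421505-70421804, and Cdc20, which activates the anaphase-promoting complex, at chr4:118437294-118437593, all on the minus strand.
Mcm5: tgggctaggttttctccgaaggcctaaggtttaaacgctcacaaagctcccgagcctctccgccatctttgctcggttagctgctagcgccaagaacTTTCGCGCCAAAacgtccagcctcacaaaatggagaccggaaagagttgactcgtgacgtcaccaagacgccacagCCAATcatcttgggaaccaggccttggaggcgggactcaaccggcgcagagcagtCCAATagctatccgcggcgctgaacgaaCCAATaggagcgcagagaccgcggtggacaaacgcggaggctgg
Cdk1: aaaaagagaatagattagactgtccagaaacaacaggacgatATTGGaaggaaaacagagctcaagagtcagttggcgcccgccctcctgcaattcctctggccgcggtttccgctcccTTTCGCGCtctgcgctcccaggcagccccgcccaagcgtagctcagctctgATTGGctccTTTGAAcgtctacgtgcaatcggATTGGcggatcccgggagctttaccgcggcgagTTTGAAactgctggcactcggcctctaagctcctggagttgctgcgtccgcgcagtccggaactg
Ccnb2: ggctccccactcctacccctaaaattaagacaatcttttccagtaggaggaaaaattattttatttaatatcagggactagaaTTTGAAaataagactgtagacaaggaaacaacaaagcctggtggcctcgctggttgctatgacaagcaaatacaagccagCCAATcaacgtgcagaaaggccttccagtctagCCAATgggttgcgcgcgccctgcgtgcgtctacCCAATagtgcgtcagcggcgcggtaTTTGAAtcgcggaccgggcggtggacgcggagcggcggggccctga
Cdc20: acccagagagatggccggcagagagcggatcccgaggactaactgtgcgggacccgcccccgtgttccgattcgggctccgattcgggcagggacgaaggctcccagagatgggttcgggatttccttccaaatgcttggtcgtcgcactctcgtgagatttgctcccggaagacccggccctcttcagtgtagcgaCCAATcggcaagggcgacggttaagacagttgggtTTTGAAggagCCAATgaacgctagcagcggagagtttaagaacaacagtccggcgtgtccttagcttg

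A window was matched for 27 members; none is shown for Ccna2, Aurkb, Foxm1, Kif20a and Tpx2. TTTGAA was found in 14 of the 27 and in 17.9% of 32851 promoter windows of the same length, TTCGAA in 3 and 1.56%, CCAAT in 23 and 37.4%, and the E2F letters in 4 and 2.26%. TTTGAA was held by 1 of the 9 DNA copying genes and by 13 of the other 18, and the E2F letters by 3 of the 9 and by 1 of the other 18. A match describes letters in a window and is not a measured binding site.

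RNA was sequenced from spleen, lung, skin, kidney, liver and skeletal muscle of old mice in a study of long-term partial reprogramming, which asks whether brief, repeated expression of the factors Oct4, Sox2, Klf4 and c-Myc changes ageing tissues. Treated 4F mice (4F het and R26::rtTA het on C57BL/6) carry a single copy of the 4-factor cassette and of rtTA, the activator that doxycycline switches on. From an age of 12 months until 22 months (10 months in all) their water held doxycycline (1 mg/ml) in weekly rounds of 2 days followed by 5 days without, and they gave 3 libraries per tissue. Untreated 4F mice of 22 months, with the same 2 alleles, gave 3. Treated B6 mice (C57BL/6 without the alleles) were given doxycycline at the same dose and in the same weekly rounds, and gave 2 libraries per tissue. Their treatment is taken here as 5 months per the series text, between the ages of 20 and 25 months, while the protocol gives 10 months. Untreated B6 mice, of 25 months per the labels and 26 months per the series text, gave 2 libraries per tissue. Each 4F group has 1 male and 2 females and each B6 group is male, so the genotypes also differ in sex, age and, per the series text, length of treatment. The labels do not say that libraries come from separate animals, and p-values measure the spread between these samples. The numbers in the library titles run in 10 blocks of 6, each with 1 library per tissue, 1 group and 1 sex, and replicate numbers are those of the blocks in all 6 tissues. No label says what a block is, so libraries of the same group and replicate may share an animal, and results in different tissues may not be independent of each other.

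Library totals ran from 18517963 to 43176392 counts, so that a count of 0 allows up to 0.162 CPM in the shallowest library (CPM, counts scaled to a library total of 1000000; 3 counts, counting error only). Each tissue held the markers of its own main cell type: all 6 B cell markers in every spleen library, all 6 lung epithelial, 6 basal epidermal and 6 kidney tubule markers, all 7 hepatocyte and all 8 muscle fibre markers. The skin libraries also held 47872 to 102311 CPM of the 8 muscle fibre markers, close to the range of muscle itself (105537 to 150176 CPM). Untreated 4F skin replicate 1 held 4694 CPM of kidney tubule markers, against at most 145 CPM in the other skin libraries, and 9.32 CPM of the Y-linked Ddx3y although labelled female, against at most 0.227 CPM in the rest of the female libraries. Untreated 4F muscle replicate 3, a male, held 185 CPM of Xist, against at most 10.1 CPM in the other male libraries, and 3522 CPM of macrophage markers, against at most 93.6 CPM in the other muscle libraries. Untreated 4F lung replicate 2 held 4088 CPM of muscle fibre markers and untreated 4F spleen replicate 2 held 1546 CPM of pancreas markers. Untreated B6 liver replicate 2 is described with the liver below. Between 2 libraries of a tissue, the mean chi-square per gene (genes with at least 50 counts in both together; 1 is sampling noise) had a median of 188 over the 45 lung pairs. It was 6.62 between treated B6 lung replicate 1 and untreated B6 lung replicate 2 and 17.1 between untreated 4F lung replicate 3 and untreated B6 lung replicate 1, while the next closest lung pair had 77.0. The closest pair of another tissue had 13.9, in kidney, with an SD of the log2 ratios of 0.36, against 0.23 and 0.29 in the 2 lung pairs. Each of the 2 pairs crosses the labels. Both differed by more than sampling noise, which does not show that the libraries are of separate samples. All 4 libraries were kept and counted. Whether they are repeats or exchanged samples was not tested, and the lung results are also given without them.

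Spleen was the tissue richest in cell division transcripts, ahead of lung and skin, and kidney, liver and muscle held the least. In the 5 untreated libraries of each tissue, the CPM of the 32 genes summed to a median of 3444 in spleen (2176 to 9623), 628 in lung (224 to 763), 245 in skin (195 to 710), 157 in kidney (123 to 291), 94.2 in liver (80.5 to 1136) and 114 in muscle (81.0 to 285). Liver had the lowest sum, while muscle had the lowest typical member, with a median of 0.139 CPM per kb of exon against 0.465 in liver and 18.3 in spleen. In bulk RNA, fewer dividing cells and less RNA per dividing cell cannot be told apart. The span within a tissue was wide: over all 10 libraries the highest sum was 14.1 times the lowest in liver, 7.08 times in skin, 6.58 times in spleen, 3.51 times in muscle, 3.41 times in lung and 2.37 times in kidney.

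**Figure D1:**
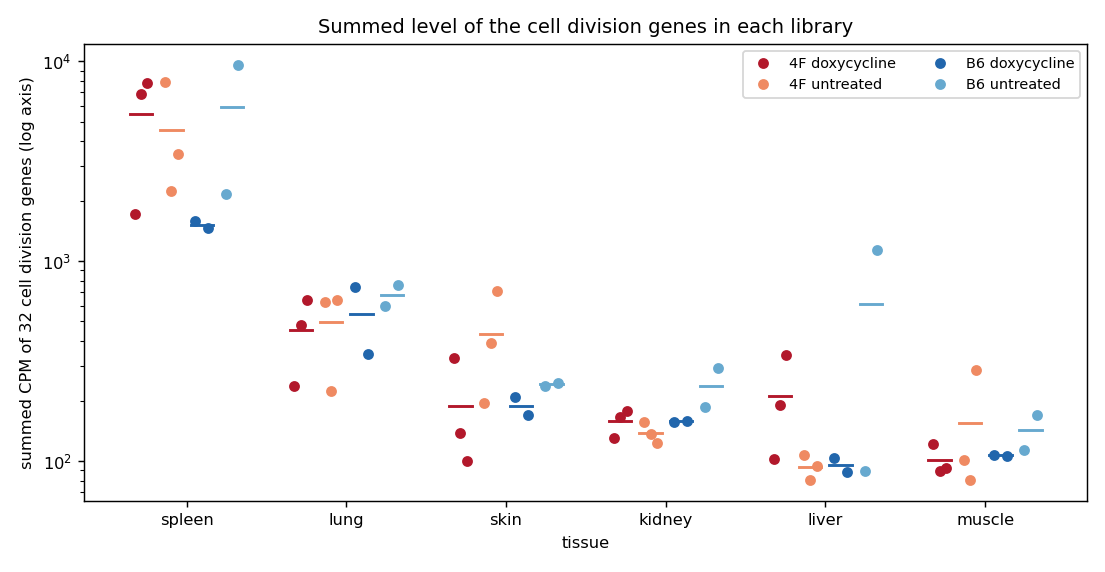
Summed CPM (log axis) of the 32 cell division genes in each of the 60 libraries, by tissue; points are libraries, lines are group means, and doxycycline groups stand left of their untreated groups. Spleen lies above every other tissue, and untreated B6 liver replicate 2 stands alone among the liver libraries at 1136 CPM.

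All 32 genes had their highest median in spleen. For 29 the lowest untreated spleen library lay above every untreated library of the other tissues, with Tk1, Foxm1 and Ttk the exceptions. The share of all genes with either pattern was not computed, so these counts alone do not show that the members stand out. Mki67, the nuclear antigen that marks cycling cells, had a median of 590 CPM in spleen, 76.7 in lung, 15.6 in skin, 6.33 in kidney, 6.06 in liver and 0.652 in muscle. The S phase clamp Pcna had a narrower range, with medians of 11.7 CPM in spleen and 2.03 in muscle. Muscle was lowest for 27 genes and liver for 5, and 21 genes had a median under 1 CPM in muscle, 9 in liver, 3 in kidney and 2 in skin.

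Levels were tested in 1 edgeR fit of the 30 untreated libraries with tissue, genotype and sex, each tissue against the mean of the other 5, and a gene was called at an adjusted p under 0.05 over the 21200 genes tested. All 32 members were called higher in spleen (30.6% of all genes were), with a median log2 difference of 4.14 against -0.06 for all genes. The smallest was Pcna, at 1.94 ± 0.24 (SE, adjusted p = 2.95e-07), and the largest Mki67, at 5.66 ± 0.69 (adjusted p = 2.16e-07). In kidney 26 were called lower (21.9% of all genes), with a median of -1.97. Without untreated 4F kidney replicate 3, 12 were called, and 15 with libraries scaled by their totals alone. The share of all genes called in these further settings is not given here. In muscle 23 members were called lower (30.4%), with a median of -2.24. In liver 2 were called lower, Aurka and Rrm1 (25.7% of all genes), and in lung 1, Tk1 (23.5%). In skin Tk1 was called lower (11.9%) and Ttk higher (23.3%).

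The liver figure rests on a single library. Without untreated B6 liver replicate 2, the median log2 difference of liver was -1.91, against -0.40 with it, and 23 members were called instead of 3. A further setting, chosen after the data were seen, left out that library together with untreated 4F muscle replicate 3, untreated B6 muscle replicate 2 and untreated 4F skin replicate 1; it gave medians of 4.56 in spleen, 0.84 in lung, 0.34 in skin, -1.40 in kidney, -1.77 in liver and -3.46 in muscle. Lung then had 8 members called higher. For settings that leave out libraries the share of all genes called is not given here. Counts of members called under them cannot be set against the shares above. Without untreated B6 lung replicates 1 and 2, each of which is close to a library of another group, the lung median was 0.34, against 0.27 with them, and 28 members were called for spleen minus lung.

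Between neighbours in the order of medians, spleen lay above lung for all 32 members (called for 32, and for 20.8% of all genes as higher). Lung and skin differed by a call for Ttk alone, lower in lung (26.7% of all genes were). Skin lay above kidney for 6 called members, Cenpf, Tpx2, Aurka, Rrm1, Ttk and Prc1 (22.8%). Kidney was called lower than liver for Tk1, Pcna and Mcm3 (20.4%), with a median of -1.35 over the members that was 0.05 without untreated B6 liver replicate 2. Liver was called higher than muscle for 7 members, Kif20a, Birc5, Rrm2, Tk1, Tyms, Plk1 and Kif23 (27.3%), and lower for Aurka and Rrm1 (27.5%). A pair not named here did not pass the threshold, which does not show equal levels.

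**Figure D2:**
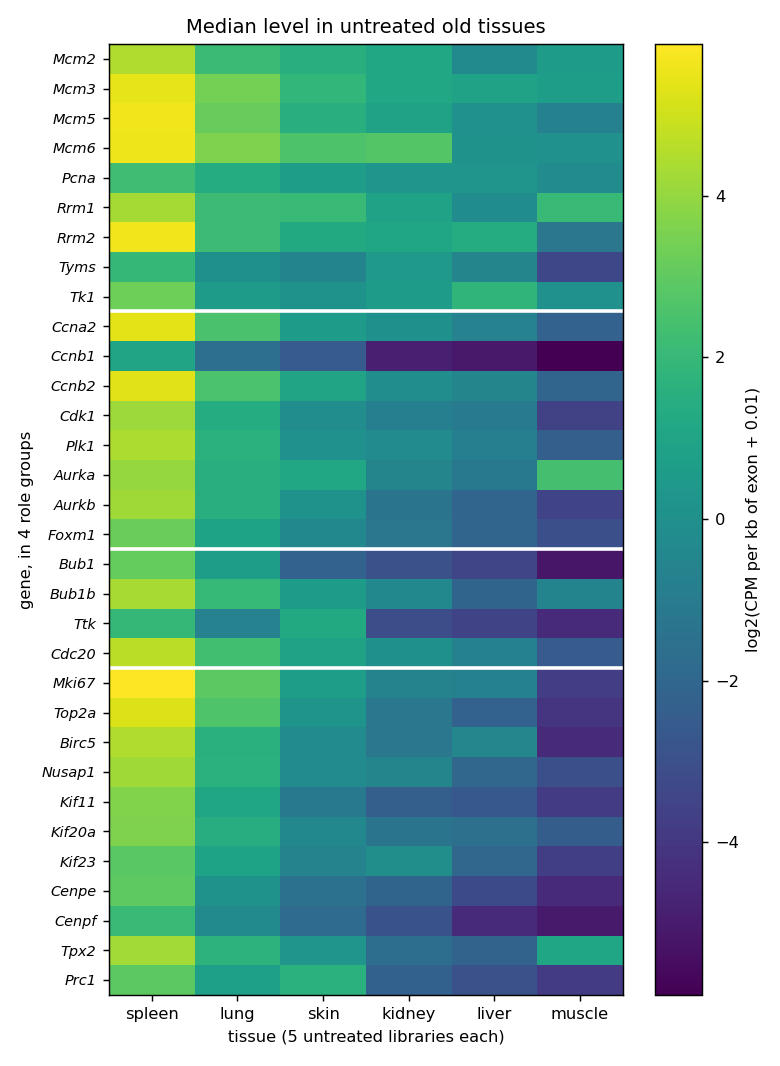
Median level of each member in the 5 untreated libraries of each tissue, as log2(CPM per kb of exon + 0.01) on a colour scale; white lines part the 4 role groups in the order DNA copying, cyclins and kinases, checkpoint, chromosome and spindle. The spleen column is the brightest in every row, and Aurka, Rrm1 and Tpx2 stay bright in muscle.

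The DNA copying genes thinned out less than the mitotic genes from tissue to tissue. Per kb of exon, the median level of the 9 DNA copying genes was 21.9 CPM in spleen and 1.04 in muscle, while that of the other 23 was 17.7 in spleen and 0.0707 in muscle. Their ratio was 1.24 in spleen, 1.62 in lung, 2.65 in skin, 4.39 in kidney, 4.75 in liver and 14.6 in muscle. Per kb of exon, the member with the lowest median in untreated muscle was Ccnb1, the main mitotic cyclin, at 0.00690 CPM per kb. The checkpoint kinase Bub1, at 0.0176, and Cenpf, a kinetochore protein of G2 and M phase, at 0.0207, came next. The untreated muscle libraries held 0, 1, 4, 0 and 19 counts of Ccnb1 and 2, 1, 142, 2 and 24 of Bub1. Their medians thus rest on fewer than 3 counts, and the order of these genes is uncertain.

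Several members left the shared order. Aurka, the spindle pole kinase, had 13.4, 2.41, 16.3, 22.1 and 7.18 CPM in the untreated muscle libraries, against a median of 40.4 in spleen, 7.39 in lung, 5.50 in skin, 1.72 in kidney and 1.11 in liver. It was called higher in muscle than in the other tissues on average (log2 difference 1.61 ± 0.42, adjusted p = 0.0022; 27.7% of all genes were called higher there), and so was Rrm1, the large subunit of ribonucleotide reductase (0.75 ± 0.26, adjusted p = 0.0183). With libraries scaled by their totals alone, neither call was made: that scaling moved the members' median by -0.80 in muscle, -0.36 in liver, 0.16 in kidney, 0.51 in lung and 0.41 in spleen. Rrm1 had 45.3, 34.7, 61.5, 45.2 and 43.8 CPM in untreated muscle, near its median of 49.8 in lung and 45.1 in skin, whereas its partner subunit Rrm2 had a median of 1.15 CPM in muscle, 12.6 in lung and 6.60 in skin. Tpx2, which targets and activates Aurka on the spindle, had a median of 9.39 CPM in untreated muscle, below spleen and lung only, and was not called (log2 difference 0.37 ± 0.56, adjusted p = 0.604).

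Ttk, the checkpoint kinase also known as Mps1, had 3.11, 11.7, 17.6, 6.00 and 12.8 CPM in untreated skin, against a median of 3.03 in lung, 0.525 in kidney, 0.397 in liver and 0.174 in muscle; only spleen, at 18.7, had a higher median. It was called higher in skin (log2 difference 2.68 ± 0.55, adjusted p = 0.000351). Prc1, which bundles microtubules of the spindle midzone, had 3.71, 25.3, 27.2, 7.29 and 34.3 CPM in the same libraries (median 25.3, against 13.7 in lung) and was not called (1.47 ± 0.59, adjusted p = 0.0574). The skin libraries highest in both genes, untreated 4F replicates 2 and 3 and untreated B6 replicate 2, were also the highest of the untreated ones in the 6 basal epidermal markers, with 15817, 9777 and 7862 CPM against 1051 and 3594 CPM in untreated 4F replicate 1 and untreated B6 replicate 1, and their part in the result was not tested. Tk1, a thymidine kinase of DNA precursor salvage, had 16.8, 41.0, 18.3, 17.4 and 28.9 CPM in untreated liver and was called higher there (1.62 ± 0.35, adjusted p = 0.000401; 25.5% of all genes were). In liver its median of 18.3 CPM stood above those of all tissues but spleen (50.5).

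**Figure D3:**
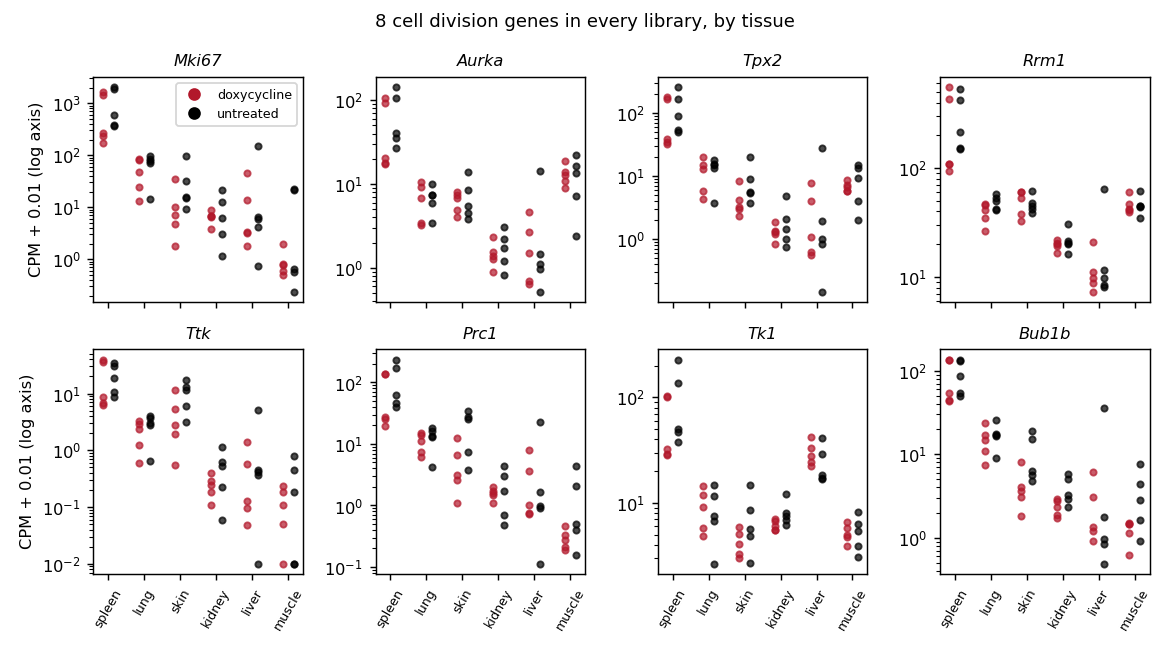
CPM plus 0.01 (log axis) of 8 members in every library, by tissue, with doxycycline libraries of both genotypes left of the untreated ones. Mki67 falls along the order of tissues, Aurka, Tpx2 and Rrm1 rise again in muscle, Ttk and Prc1 are high in skin, and Tk1 is high in liver.

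Doxycycline was tested within each tissue in an edgeR fit of its 10 libraries with 4 groups and sex, adjusted over all genes of the tissue. With every library in, 0 of the 32 members were called in either genotype in any tissue, and 0 were called for the difference between the genotypes (the 4F effect minus the B6 effect). Hardly any gene at all was: 0% of all genes were called in these comparisons, apart from 0.00609% (1 gene) in 4F muscle. At an unadjusted p under 0.05 the members numbered 22 in 4F skin, 24 in B6 spleen, 16 in B6 liver, 10 in B6 kidney, 4 in B6 muscle, 1 each in B6 skin and in 4F kidney, liver and muscle, and 0 elsewhere. For the difference they numbered 27 in liver, 12 in kidney, 5 in spleen, 4 in skin and 0 in lung and muscle. Outside 4F skin the share of all genes at this limit is not given here, so these counts do not show that the members stand out. DESeq2 on the same design called 14 members in 4F skin, 2 in B6 spleen and 0 in every other comparison with all libraries. The share of all genes that DESeq2 called is not given here or below, so its counts cannot be set against the edgeR shares. The direction and spread of the members are given next, tissue by tissue.

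**Figure D4:**
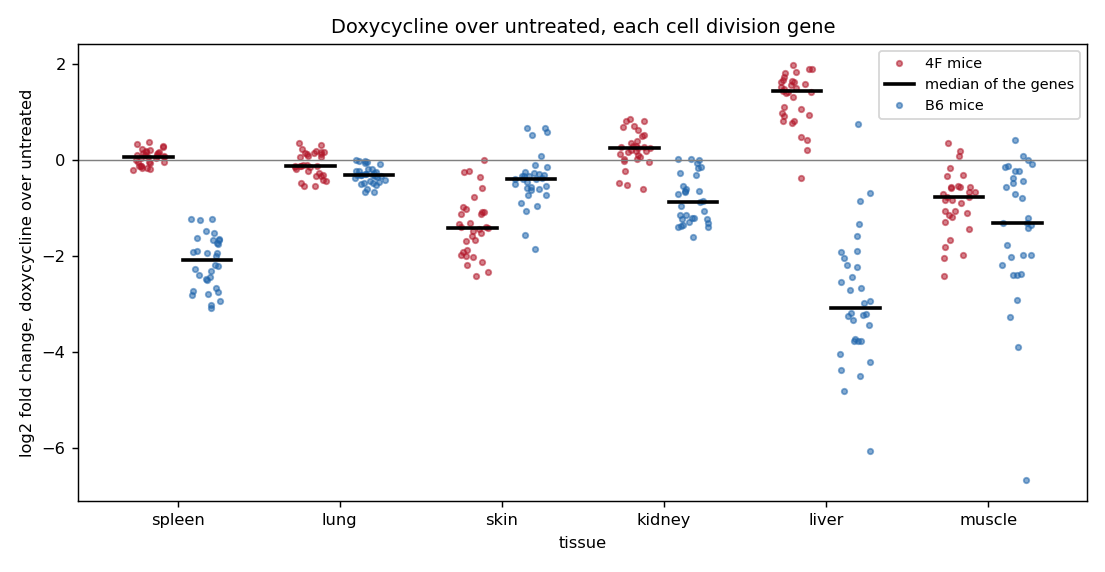
Log2 fold change of each tested member, doxycycline over untreated, in 4F mice (left in each pair) and B6 mice, with the median of the members as a black line. The members lie together below 0 in 4F skin, B6 spleen and B6 liver and above 0 in 4F liver, and none of these points passed the adjusted threshold.

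Skin gave the lowest 4F fold changes. Summed over the members, treated 4F skin held 328, 139 and 100.2 CPM, against 195, 389 and 710 CPM in untreated 4F skin. The log2 fold change was below 0 for 31 of 32 members (55.0% of all genes), with a median of -1.40 against -0.07 for all genes, and 22 members had an unadjusted p under 0.05, as did 12.4% of all genes. In 3 members every treated library lay below every untreated one (10.0% of all genes).

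Birc5, the inner centromere protein survivin, had 3.70, 1.11 and 0.765 CPM in treated 4F skin, against 2.88, 4.76 and 11.9 CPM in untreated 4F skin. Its treated replicate 1 lay inside the untreated range and the other treated libraries below it (log2 fold change -1.68 ± 0.37 SE, adjusted p = 0.389 by edgeR). Mki67 had 34.3, 4.77 and 1.80 CPM treated, against 15.2, 32.2 and 97.4 CPM untreated (-2.17 ± 0.50, adjusted p = 0.389). Cdk1 had 5.95, 1.91 and 0.585 CPM treated, against 4.53, 8.01 and 18.96 CPM untreated (-1.88 ± 0.46, adjusted p = 0.389). In all 3 genes the males, treated replicate 1 and untreated replicate 3, were the highest of their group.

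Untreated 4F skin replicate 1, which holds kidney transcripts, was low in these genes. Without it, 6 members were called lower and none higher in treated 4F skin, while 692 of 18281 genes (3.79%) were called, 1.99% as higher and 1.80% as lower. All 32 members were below 0 (49.6% of all genes), with a median of -1.64. The treated and untreated ranges of 24 members did not overlap (33.4% of all genes as lower). The 6 were Cdc20 (log2 fold change -2.37 ± 0.42, adjusted p = 0.0446), Mcm5 (-1.63 ± 0.30, adjusted p = 0.0457), Birc5 (-1.83 ± 0.35, adjusted p = 0.0463), Cenpf (-2.72 ± 0.54, adjusted p = 0.0474), Tpx2 (-1.31 ± 0.26, adjusted p = 0.0484) and Rrm2 (-1.86 ± 0.37, adjusted p = 0.0486).

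Cdc20 had 4.58, 1.49 and 0.675 CPM in treated 4F skin, against 9.44 and 17.3 CPM in the 2 remaining untreated libraries, with 1.80 CPM in the library left out. Mcm5 had 13.2, 3.94 and 3.47 CPM treated, against 17.9 and 32.03 CPM untreated, with 8.31 CPM in the library left out. Rrm2 had 6.68, 2.32 and 1.49 CPM treated, against 11.3 and 17.7 CPM untreated, with 5.24 CPM in the library left out. For each of the 3 genes the library left out lay inside the treated range. Rrm1 and Aurka, the members called higher in muscle, stood near 0 in this comparison (-0.03 ± 0.16 and -0.25 ± 0.47).

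These 6 calls were made with few libraries and at adjusted p between 0.0446 and 0.0486. Leaving out any of the 5 remaining 4F skin libraries or either treated B6 library as well gave 0 members called, with 30 to 32 members below 0, while leaving out either untreated B6 library gave 15. A fit with no sex term called 0 members, and DESeq2 called 27. The share of all genes called is not given for these fits, or without each further library. Their counts therefore do not show that the members stand out. At an unadjusted p under 0.05 stood 27 members and 32.1% of all genes. The 11 markers of the growing hair follicle found in the table summed to 1415, 3.99 and 1.17 CPM in treated 4F skin, against 6.85, 21.1 and 12289 CPM in untreated 4F skin, the first untreated value being the library left out. The 6 basal epidermal markers summed to 3955, 1499 and 433 CPM treated, against 1051, 15817 and 9777 CPM untreated, and the 8 muscle fibre markers to 53643, 92811 and 102311 CPM treated, against 47872, 77480 and 54709 CPM untreated. Their part in the result was not tested.

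**Figure D5:**
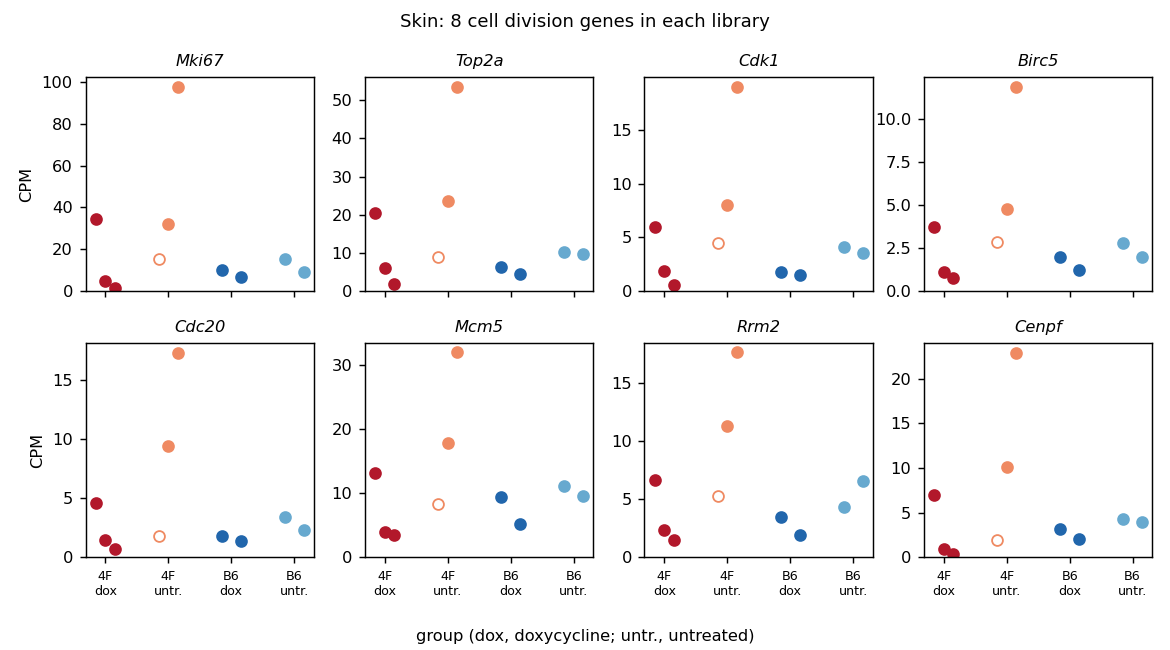
CPM of 8 members in each skin library, doxycycline left of untreated in each genotype; the open circle is untreated 4F replicate 1. The other untreated 4F libraries are the highest points of Cdc20, Mcm5, Rrm2 and Cenpf, and the B6 points lie low and close together.

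In B6 skin the members summed to 209 and 170.0 CPM in treated libraries, against 239 and 245 CPM in untreated ones. The log2 fold change was below 0 for 27 of 32 (54.7% of all genes), with a median of -0.38, and the ranges of 22 did not overlap as lower, against 45.4% of all genes. Rrm1 had 60.2 and 60.7 CPM treated, against 48.1 and 45.1 CPM untreated, above without overlap, and was not called (0.67 ± 0.18, adjusted p = 0.63). Tyms, the thymidylate synthase, had 1.74 and 1.16 CPM treated, against 3.07 and 2.76 CPM untreated (-0.72 ± 0.36, adjusted p = 0.656). Prc1 had 6.72 and 2.61 CPM treated, against 7.29 and 34.3 CPM untreated (-1.84 ± 1.08, adjusted p = 0.676). The 8 muscle fibre markers summed to 96237 and 99232 CPM in treated B6 skin, against 79621 and 65217 CPM in untreated B6 skin. The 6 basal epidermal markers summed to 3937 and 1852 CPM treated, against 3594 and 7862 CPM untreated. Their part in the result was not tested. The 4F effect minus the B6 effect in skin had a median of -0.93 with all libraries and -1.13 without untreated 4F replicate 1, with 0 members called by edgeR in both and 2 by DESeq2 in the second.

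In liver, 2 of the 3 treated 4F libraries held more of the members than any untreated 4F library. The members summed to 102, 190.2 and 341 CPM in treated 4F liver, against 107, 80.5 and 94.2 CPM in untreated 4F liver, so treated replicate 1 lay inside the untreated range and replicates 2 and 3 above it. The log2 fold change was above 0 for 31 of 32 members (50.6% of all genes), with a median of 1.44; Pcna, with a log2 fold change of -0.37, was the exception. In 6 members the groups did not overlap (5.87% of all genes as higher).

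Rrm2, the limiting subunit of ribonucleotide reductase, had 10.7, 10.1 and 21.8 CPM in treated 4F liver, against 4.99, 3.72 and 7.19 CPM in untreated 4F liver. All treated libraries lay above all untreated ones (log2 fold change 1.40 ± 0.56, unadjusted p = 0.0377, adjusted p = 1). Cdc20 had 1.23, 2.25 and 5.41 CPM treated, against 1.44, 0.239 and 0.364 CPM untreated (1.99 ± 0.91, adjusted p = 1). The mitotic kinase Plk1 had 0.759, 3.46 and 5.68 CPM treated, against 1.95, 0.648 and 0.364 CPM untreated (1.53 ± 0.79, adjusted p = 1). For both, treated replicates 2 and 3 were above every untreated library and replicate 1 was not.

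The 7 macrophage markers summed to 698, 1185 and 2011 CPM in treated 4F liver, against 620, 455 and 475 CPM in untreated 4F liver, in the same order as the members among the treated. The 7 markers of mature neutrophils summed to 3.88, 628 and 218 CPM treated, against 74.0, 68.5 and 23.1 CPM untreated. Their part in the result was not tested. Leaving out each liver library in turn gave medians between 0.75 and 1.93.

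In B6 liver the members summed to 104 and 88.2 CPM in treated libraries, against 89.7 and 1136 CPM in untreated ones. Untreated replicate 2 was the highest of all 10 liver libraries for 31 of the 32 members. The log2 fold change was below 0 for 31 members (55.4% of all genes), with a median of -3.08, and without that library the median was -0.13, with 22 members below 0 and 10 above. Mki67 had 3.21 and 1.81 CPM treated, against 4.13 and 152 CPM untreated, and Kif20a, a kinesin of cytokinesis, had 1.13 and 0.718 CPM treated, against 1.43 and 28.1 CPM untreated. Aurka had 0.680 and 0.632 CPM treated, against 1.11 and 14.2 CPM untreated (-2.98 ± 1.02, unadjusted p = 0.0207, adjusted p = 0.5). Kif20a and Plk1, the next by p, had log2 fold changes of -3.42 ± 1.19 and -2.67 ± 0.99 (adjusted p = 0.5 for each). The ranges of 16 members did not overlap as lower (23.6% of all genes).

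Untreated B6 liver replicate 2 also held 9158 CPM of the 7 macrophage markers, against 353 to 2011 CPM in the other liver libraries, 1935 CPM of the 7 neutrophil markers, against 3.88 to 628, and 53644 CPM of the 7 hepatocyte markers, against 79305 to 145137. Their part in the result was not tested. Leaving out the other untreated library, which sets both treated libraries against this one alone, gave a B6 median of -3.84. The difference then had a median of 5.34. The 4F effect minus the B6 effect had a median of 4.54 with all libraries and 1.54 without untreated B6 replicate 2.

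Spleen, richest in these transcripts, was also uneven within groups. The members summed to 1719, 6849 and 7764 CPM in treated 4F spleen, against 7858, 2257 and 3444 CPM in untreated 4F spleen, so the groups overlapped over most of their range. The log2 fold change was above 0 for 21 of 32 (49.6% of all genes), with a median of 0.08. Without untreated replicate 2 all 32 were below 0, with a median of -0.43, and without untreated replicate 3 all 32 were above, with a median of 0.53. Mcm5 had 131, 368 and 478 CPM treated, against 369.7, 122 and 195 CPM untreated (0.38 ± 0.56, adjusted p = 0.992). Mcm3, another helicase subunit, had 112, 248 and 318 CPM treated, against 261, 102 and 162 CPM untreated (0.30 ± 0.48, adjusted p = 0.992). Kif20a had 34.8, 111 and 132 CPM treated, against 108, 36.9 and 52.6 CPM untreated (0.34 ± 0.58, adjusted p = 0.995). In all 3 genes the groups overlapped, and treated replicate 3 was the highest 4F library.

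In B6 spleen the members summed to 1587 and 1463 CPM in treated libraries, against 2176 and 9623 CPM in untreated ones. All 32 log2 fold changes were below 0 (47.6% of all genes), with a median of -2.08, and the ranges of 31 members did not overlap (16.6% of all genes as lower). Rrm2 had 55.9 and 46.9 CPM treated, against 96.8 and 617 CPM untreated (-3.01 ± 0.98, unadjusted p = 0.0152, adjusted p = 0.701). Ccnb2 had 28.4 and 22.1 CPM treated, against 42.5 and 232 CPM untreated (-2.65 ± 0.87, adjusted p = 0.701). Birc5 had 31.6 and 25.5 CPM treated, against 46.8 and 366 CPM untreated (-3.07 ± 1.01, adjusted p = 0.701). In each, both untreated libraries lay above both treated ones, and untreated replicate 2 far above.

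Without untreated B6 spleen replicate 2 the B6 median was -0.44, still with 32 members below 0, and without untreated replicate 1 it was -2.87. The 10 red cell precursor markers summed to 5349 and 843 CPM in treated B6 spleen, against 4280 and 24792 CPM in untreated B6 spleen, and to 2165, 10968 and 14543 CPM in treated 4F spleen, against 18394, 4687 and 3577 CPM in untreated 4F spleen. The 7 granulocyte precursor markers summed to 340 and 99.3 CPM in treated B6 spleen, against 104 and 1425 CPM in untreated B6 spleen. Their part in the result was not tested. The 4F effect minus the B6 effect had a median of 2.20, and 0.57 without untreated B6 replicate 2.

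Kidney held the narrowest span. The members summed to 131, 166 and 179 CPM in treated 4F kidney, against 157, 136 and 123 CPM in untreated 4F kidney, and to 158 and 159 CPM in treated B6 kidney, against 186 and 291 CPM in untreated B6 kidney. In 4F kidney 25 of the 31 tested members were above 0 (48.1% of all genes), with a median of 0.26; Ccnb1 had too few counts to be tested. Kif20a had 1.51, 2.77 and 2.82 CPM treated, against 1.66, 0.860 and 1.25 CPM untreated (0.87 ± 0.35, adjusted p = 0.923). The checkpoint gene Bub1b had 1.87, 1.71 and 2.77 CPM treated, against 2.90, 4.99 and 2.31 CPM untreated (-0.61 ± 0.31, adjusted p = 0.923). Tk1 had 7.10, 5.55 and 5.59 CPM treated, against 6.13, 12.2 and 7.57 CPM untreated (-0.47 ± 0.24, adjusted p = 0.923). The groups overlapped in all 3 genes.

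In B6 kidney 28 of 31 members were below 0 (51.9% of all genes), with a median of -0.87, and the ranges of 22 did not overlap (24.2% of all genes as lower). Birc5 had 1.25 and 0.999 CPM treated, against 2.65 and 4.56 CPM untreated (-1.60 ± 0.39, unadjusted p = 0.00311, adjusted p = 0.988). Plk1 had 1.21 and 1.04 CPM treated, against 2.24 and 3.31 CPM untreated (-1.23 ± 0.31, adjusted p = 0.988). Rrm2 had 2.74 and 4.00 CPM treated, against 5.20 and 7.75 CPM untreated (-0.87 ± 0.27, adjusted p = 0.988). Untreated replicate 2 was the highest of the 10 kidney libraries for 27 members, and the median was -0.39 without it. The 7 macrophage markers summed to 272 and 238 CPM in treated B6 kidney, against 234 and 607 CPM in untreated B6 kidney, and the 7 neutrophil markers to 11.6 and 4.63 CPM treated, against 45.9 and 109 CPM untreated. The 10 red cell precursor markers summed to 244 and 234 CPM treated, against 266 and 675 CPM untreated, and the 6 kidney tubule markers to 34314 and 34477 CPM treated, against 36788 and 24517 CPM untreated. Untreated replicate 2 was the highest of the 4 in the first 3 lists and the lowest in the last. Their part in the result was not tested. With no filter on low counts, 1 member was called higher in 4F kidney, 4 lower in B6 kidney and 4 higher for the difference. The share of all genes called in that fit is not given here, so the counts do not show that the members stand out.

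Muscle held least of the typical member, and Ccnb1 again had too few counts to be tested. The members summed to 122, 89.3 and 92.4 CPM in treated 4F muscle, against 101, 81.0 and 285 CPM in untreated 4F muscle, and to 108 and 106 CPM in treated B6 muscle, against 114 and 171 CPM in untreated B6 muscle. In 4F muscle 28 of 31 tested members were below 0 (53.3% of all genes), with a median of -0.76, and 2 did not overlap (4.61% of all genes as lower). In B6 muscle 28 of 31 were below 0 (51.2% of all genes), with a median of -1.31, and 7 did not overlap as lower (22.5% of all genes).

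Cenpf had 0.288, 0.133 and 0.081 CPM in treated 4F muscle, against 0.268, 0.320 and 2.44 CPM in untreated 4F muscle (-2.03 ± 1.04, adjusted p = 0.57), and 0.210 and 0 CPM in treated B6 muscle, against 0.267 and 1.90 CPM in untreated B6 muscle (-3.27 ± 1.25, adjusted p = 0.762). Prc1 had 0.447, 0.177 and 0.203 CPM in treated 4F muscle, against 0.498, 0.145 and 4.37 CPM in untreated 4F muscle (-1.66 ± 0.85, adjusted p = 0.57). In both genes untreated 4F replicate 3 stood alone. Bub1b had 1.502, 0.620 and 1.46 CPM in treated 4F muscle, against 1.61, 7.56 and 4.39 CPM in untreated 4F muscle, without overlap (-1.82 ± 0.65, unadjusted p = 0.0243, adjusted p = 0.54). Kif11, the motor that pushes spindle poles apart, had 0.280 and 0.556 CPM in treated B6 muscle, against 0.458 and 3.01 CPM in untreated B6 muscle (-1.96 ± 0.81, adjusted p = 0.762). Bub1 had 0 counts in both treated B6 libraries, against 2 and 24 in untreated B6 replicates 1 and 2, and was not called. With the 26 untreated counts pooled and 3 counts allowed over the treated group, the treated group was at least 9.14-fold lower. This bound covers counting error only, and 24 of the 26 counts are of untreated replicate 2. Without untreated 4F muscle replicate 3 the 4F median was 0.05, and without untreated B6 muscle replicate 2 the B6 median was 0.26, so the direction in each genotype rested on 1 library. The untreated B6 replicate 2 libraries of muscle, spleen, kidney and liver, which set the size of the B6 medians, are of 1 block of title numbers, so these tissues may not be separate observations. The 7 neutrophil markers summed to 414 CPM in untreated B6 replicate 2 and 193 CPM in untreated 4F replicate 3, against 2.29 to 35.0 CPM in the other muscle libraries, and their part in the result was not tested.

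Lung showed no shared direction in 4F mice. The members summed to 237, 478 and 642 CPM in treated 4F lung, against 628, 224 and 639 CPM in untreated 4F lung, and to 746 and 344 CPM in treated B6 lung, against 597 and 763 CPM in untreated B6 lung. In 4F lung 19 of 32 were below 0 (52.1% of all genes), with a median of -0.11. In B6 lung 31 of 32 were below 0 (50.1% of all genes), with a median of -0.30, and 4 did not overlap as lower (10.1% of all genes). Rrm1 had the smallest p in both, with 26.4, 35.2 and 46.2 CPM in treated 4F lung, against 41.3, 41.7 and 58.4 CPM in untreated 4F lung (-0.32 ± 0.25, adjusted p = 0.752), and 47.2 and 41.2 CPM in treated B6 lung, against 53.2 and 49.8 CPM in untreated B6 lung (-0.21 ± 0.30, adjusted p = 1). In 4F lung the groups overlapped, and in B6 lung both treated libraries lay below both untreated ones. The next by p were the kinetochore motor Cenpe (-0.53 ± 0.77, adjusted p = 0.869) and the spindle protein Nusap1 (-0.47 ± 0.71, adjusted p = 0.871) in 4F lung, and Prc1 (-0.47 ± 0.67) and Ttk (-0.66 ± 0.96, adjusted p = 1 for both) in B6 lung. Untreated 4F replicate 2, the library with muscle markers, was the lowest of the 10 for 22 members, and without it the 4F median was -0.57, with all 32 below 0, against 0.58, with all 32 above, without untreated 4F replicate 3. Without treated B6 replicate 2 the B6 median was 0.24, with 27 members above 0.

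The lung medians also moved without the close pairs named above. The B6 median was -1.36 without treated B6 replicate 1, 0.026 without untreated B6 replicate 2, with 17 members above 0, and -0.93 without both, which leaves 1 library in each B6 group. Without untreated 4F replicate 3 and untreated B6 replicate 1 together, a setting also chosen after the data were seen, the 4F median was 0.59, with all 32 above 0, and the B6 median -0.59. The neutrophil markers summed to 3105 and 764 CPM in treated B6 lung, against 308 and 3140 CPM in untreated B6 lung, and the macrophage markers to 2366 and 697 CPM treated, against 795 and 2321 CPM untreated. Treated replicate 1 and untreated replicate 2 were high in both, and the other untreated B6 library lay near untreated 4F replicate 3, at 310 CPM of neutrophil and 712 CPM of macrophage markers. Their part in the result was not tested.

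Other cell cycle genes were followed in lists of the same pathway. None of 22 further replication genes, 15 regulators of entry into S phase, 36 further mitotic genes and 18 genes that hold cells at rest was called with all libraries. In 4F liver all 36 mitotic genes were above 0, with a median of 1.21, and so were 19 of the 22 replication genes, with a median of 0.60, while the 18 brake genes had a median of 0.14. In 4F skin 35 of the 36 mitotic genes were below 0, with a median of -1.495, and 21 of the 22 replication genes, with a median of -0.70. Without untreated 4F skin replicate 1, 4 mitotic genes were called lower in treated 4F skin, Incenp (-1.30 ± 0.22, adjusted p = 0.0438) and Cdca8 (-2.30 ± 0.43, adjusted p = 0.0458) of the chromosomal passenger complex, Kif2c (-2.29 ± 0.42, adjusted p = 0.0457), which takes microtubules apart, and Ckap2 (-2.37 ± 0.40, adjusted p = 0.0438), a spindle protein. The DNA ligase Lig1 (-1.21 ± 0.23, adjusted p = 0.0463) and the transcription factor E2f2 (-2.25 ± 0.32, adjusted p = 0.0397) were also called lower there, and no brake gene was.

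Some members share sequence or exons with other genes. Exons of Kif20a overlap those of Cdc23 over 29.3% of its length, and those of Ccna2 overlap Exosc9 over 12.5%, on opposite strands. Prc1 overlaps Rccd1 in the same way over 11.1%. Whether counting used strand is not given in the sources used here. The pseudogenes Pcna-ps2, Tyms-ps and Ccnb2-ps reached at most 424, 95 and 14 counts in a library, and reads shared with them are uncertain.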

How the data were processed

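RNA from 6 tissues was sequenced in 60 libraries (TruSeq stranded total RNA, per the labels' protocols). The authors deposited raw counts per Ensembl gene, not normalized, of the genome build GRCm38 per the submitters' processing notes; the sources used here name no aligner, counter or strand setting. Of 52636 identifiers, 52489 were paired with a symbol and 147 were not. CPM was computed from the deposited counts by scaling each library total to 1000000; 3 counts, the limit that a count of 0 allows, equal 0.0695 to 0.162 CPM over the libraries, and intervals of this kind cover counting error only.

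Doxycycline was tested per tissue with edgeR 4.0.16 (limma 3.58.1, R 4.3.3): quasi-likelihood test, TMM scaling, filterByExpr (minimum count 10, minimum total 15), 4 groups and sex, 5 residual degrees of freedom, Benjamini-Hochberg adjustment over all genes of the tissue, and a threshold of 0.05. Tissue levels used the 30 untreated libraries with 22 residual degrees of freedom. Errors of log2 values are standard errors. The members and lists were chosen with earlier results of these data known. The genes named per comparison are the 3 members with the smallest p, and other members are named for their pattern after their values were seen. Alternatives were DESeq2 1.42.0 as test and as size factors, library size alone, no filter, no sex term, one genotype alone, and each library left out. The scripts were tested on simulated data. Library numbers within a group follow accession order. The labels give untreated B6 mice as 25 months old and the series text as 26; the labels also describe B6 treatment in the words used for 4F mice, and the protocol gives 10 months of treatment where the series text gives 5 for B6.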

Additional observations from a re-analysis of the deposited data

Results flagged for a closer look

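Among the untreated libraries, the members summed to 1136 CPM in untreated B6 liver replicate 2, against a median of 94.2 CPM over the 5 untreated liver libraries. Its gap to the nearest other library was 0.975 of the range of the group, above Dixon's critical value of 0.71 for 5 libraries. It was the only one of the 6 groups of untreated libraries tested in this way that passed.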

How the results depend on the processing

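No paired analysis of treated against untreated libraries was possible because within a tissue no number ties a library of one group to a library of another. Across tissues the title numbers could mark pairs. Deviations from the group means (log2(CPM + 1), 16679 genes) were correlated over the 150 pairs of libraries of a block. The correlations ran from -0.21 to 0.46 (median 0.10) and were over 0.1 in 79 pairs. In a B6 group of 2 libraries the deviations mirror each other, so both blocks of a B6 group gave the same correlations. Pairs of different blocks were not compared, and libraries of a 4F block also share their sex. The correlations therefore cannot decide whether the numbers mark pairs. With the replicate block in the level fit, chosen after the data were seen, 6 members were called in liver and 14 for skin minus kidney, and no other count for levels moved by over 1.5 times. Each library was left out in turn. The members' median then ranged, for 4F mice, from -0.43 to 0.53 in spleen, -0.57 to 0.58 in lung, -1.65 to -1.01 in skin (0 to 6 members called), 0.05 to 0.48 in kidney, 0.75 to 1.93 in liver and -1.14 to 0.05 in muscle. For B6 mice it ranged from -2.87 to -0.44 in spleen, -1.36 to 0.24 in lung and -0.65 to -0.19 in skin. In B6 kidney it ranged from -1.21 to -0.39, in B6 liver from -3.84 to -0.13 and in B6 muscle from -2.08 to 0.26. The 4F effect minus the B6 effect ranged from 0.57 to 3.01 in spleen, -0.31 to 1.16 in lung, -1.14 to -0.57 in skin, 0.63 to 1.47 in kidney, 1.54 to 5.34 in liver (0 to 29 called) and -1.20 to 1.35 in muscle. In 4F skin without untreated replicate 1 it ranged from -1.97 to -1.25 (0 to 15 called). Levels ranged from 3.61 to 4.46 in spleen (32 called each time), -0.03 to 0.57 in lung (1 called each time), -0.66 to -0.03 in skin (1 to 3), -2.20 to -1.59 in kidney (12 to 28), -1.91 to -0.038 in liver (2 to 23) and -2.80 to -1.89 in muscle (17 to 27). Neighbours ranged from 2.75 to 3.73 for spleen minus lung (30 to 32), 0.04 to 0.68 for lung minus skin (0 to 2), 1.09 to 1.75 for skin minus kidney (4 to 9), -1.62 to 0.055 for kidney minus liver (1 to 5) and -0.15 to 2.10 for liver minus muscle (4 to 19). The signs of 3 genes in 4F spleen reversed without untreated 4F replicate 2, alone or together with untreated B6 replicate 2: Mcm5 gave -0.080, Mcm3 -0.10 and Kif20a -0.11 or -0.10. Over the libraries left out they reached 0.80, 0.66 and 0.76. In 4F lung without either male, Rrm1 gave 0.077, Cenpe 0.29 and Nusap1 0.23, and their lowest values over the libraries left out were -0.51, -1.23 and -1.13. Without both spleen libraries the B6 median was -0.44 and the difference 0.083, and without both muscle libraries, a setting chosen after the data were seen, the B6 muscle median was 0.29. Without untreated 4F lung replicate 3 and untreated B6 lung replicate 1 together, also chosen after the data were seen, the difference in lung was 1.13, and Rrm1 gave 0.085, Cenpe 0.29 and Nusap1 0.23 in 4F lung. Without untreated B6 lung replicates 1 and 2, 0 were called for lung minus skin. DESeq2 called 2 members in B6 spleen, 14 in 4F skin and 27 in 4F skin without untreated replicate 1, where a fit with no sex term called 0. With no filter 1 member was called in 4F kidney, 4 in B6 kidney and 4 for the difference. Counts of members called for levels moved as follows. Library size alone gave 0 in lung, 15 in kidney, 0 for lung minus skin and 1 for kidney minus liver. All 60 libraries gave 10 in lung, 8 in skin, 8 in liver, 11 for lung minus skin, 14 for skin minus kidney, 21 for kidney minus liver and 28 for liver minus muscle. The 18 untreated 4F libraries alone gave 1 in skin, 17 in kidney, 13 in liver with a median of -1.76, 14 in muscle, 0 for lung minus skin, 13 for skin minus kidney, and a median of -0.042 for liver minus muscle. No filter gave 0 for lung minus skin. Without the 4 libraries that stand apart, chosen after the data were seen, the counts were 9 in lung, 22 in liver with a median of -1.77 and 14 for skin minus kidney, and the medians -3.46 in muscle and 0.060 for kidney minus liver. The cause of these changes was not tested. The share of all genes called under these settings is not given here, so counts of members do not show that the members stand out. A count was taken as moved when it changed by over 1.5 times, or to or from 0. A median was taken as moved when it shifted by at least the pooled SD within groups of the members' median log2 CPM. For levels this SD was averaged over the tissues. Larger shifts can therefore pass as unmoved where libraries are uneven. By these limits 85 values of summaries moved and 1327 did not.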
